A study of Mus musculus with 9 samples.

Results

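Genes for the subunits of glutamate and GABA receptors were followed in RNA from the cerebral cortex of mice. They were chosen by a rule on gene names, with earlier results of these data known. The rule took the AMPA (Gria), kainate (Grik), delta (Grid) and NMDA (Grin) subunits and the metabotropic glutamate receptors (Grm). It also took the GABA-A subunits (Gabra to Gabrg, Gabrd, Gabre, Gabrp and Gabrq) and both GABA-B subunits. The rule found 44 of the 37893 genes in the table, 26 for glutamate and 18 for GABA receptors. The tissue came from 3 groups of 3 mice. Matn3 -/- mice (IR_Matn3_ko) and wild-type mice (IR_WT) had a transient occlusion of the middle cerebral artery, with 60 min of ischemia and 1 day of reperfusion, and cortex around the infarct was taken. Wild-type mice with sham surgery (sham_WT) gave cortex with no such site named, so the region sampled may differ with the surgery. Matn3 encodes matrilin-3, an extracellular matrix protein. The design text names IR_WT against sham_WT and IR_Matn3_ko against IR_WT. Another contrast, IR_Matn3_ko against sham_WT, was added after the data were seen. It changes genotype and surgery together, and the 2 cannot be told apart there, since knockout mice with sham surgery are not analysed here.

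Glutamate is the main excitatory transmitter of the cortex and GABA the main inhibitory one. AMPA, kainate and NMDA receptors are cation channels built of 4 subunits, GABA-A receptors are chloride channels built of 5, and metabotropic glutamate and GABA-B receptors signal through G proteins. Which subunits a cell makes sets how fast a channel closes, whether calcium passes and where the receptor sits. In ischemia, glutamate released in excess drives calcium into neurons through NMDA receptors and through AMPA receptors that lack the Gria2 product, which is why these genes are studied in stroke.

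Each library held 53400376 to 68370527 counts, and the members made up 0.499% to 0.644% of them. Excitatory neuron markers were plentiful in all 9 libraries, with Slc17a7 at 149 to 224 FPKM (fragments scaled to transcript length and to library depth) and Tbr1 at 22.7 to 29.5 FPKM. Matn3 had 0, 17 and 0 counts in IR_Matn3_ko, 33, 12 and 48 in IR_WT and 0, 4 and 26 in sham_WT, too few to check the knockout labels. The replicate with 17 counts is called the library labelled IR_Matn3_ko 2. The libraries also fell into 2 sets. Small intestine transcripts summed to 100 to 477 CPM, that is, counts scaled to library depth, in the 3 IR_Matn3_ko libraries and IR_WT replicates 2 and 3, against 6.05 to 8.67 CPM in IR_WT replicate 1 and the 3 sham_WT libraries. Transcripts of B cells had the opposite split, at 11.6 to 18.6 CPM in the first of these sets and 83.7 to 121 CPM in the second. A term for the set was therefore added as an alternative. IR_WT against sham_WT then rests on IR_WT replicate 1, and IR_Matn3_ko against IR_WT on IR_WT replicates 2 and 3. IR_Matn3_ko and sham_WT share no set, so with the term their contrast is linked only through these IR_WT libraries.

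Of the 44 members, 38 reached 0.5 FPKM in at least 3 libraries and were tested, each with 575 counts or more in every library. The highest was Gabbr1, the GABA-B subunit that binds GABA, at 68.8 ± 10.6 FPKM in IR_Matn3_ko, 76.4 ± 7.5 in IR_WT and 80.5 ± 2.5 in sham_WT (SD, n = 3 each, as for all such values). Other members with a high mean level over the 9 libraries were Grin1, the subunit every NMDA receptor needs, at 47.5 FPKM, and Gabbr2, the GABA-B subunit that couples to the G protein, at 46.9. Gria1 followed at 44.9 FPKM. From Grin1 to Gria1 neighbours in this order lay within their spread over the libraries. Within the other families the highest were Grik5 among kainate subunits (30.6 FPKM), Grm5 among metabotropic receptors (13.8) and Grid1 among delta subunits (6.71). Gabrd, at 16.2 FPKM, was the only tested member of the smaller GABA-A classes.

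The 6 members that failed the filter were at or near 0. Grin3b, Gabrq and Gabre averaged 0.126, 0.122 and 0.0969 FPKM over the 9 libraries. Grm6, a receptor of retinal bipolar cells, had 0 to 12 counts. Gabra6, which marks cerebellar granule cells, had 4 counts in 1 sham_WT library and 0 in the other 8. Gabrp had 3 counts in 1 IR_Matn3_ko library and 0 elsewhere. A count of 0 allows up to 0.0439 to 0.0562 CPM in these libraries, for counting error only.

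**Figure D1:**
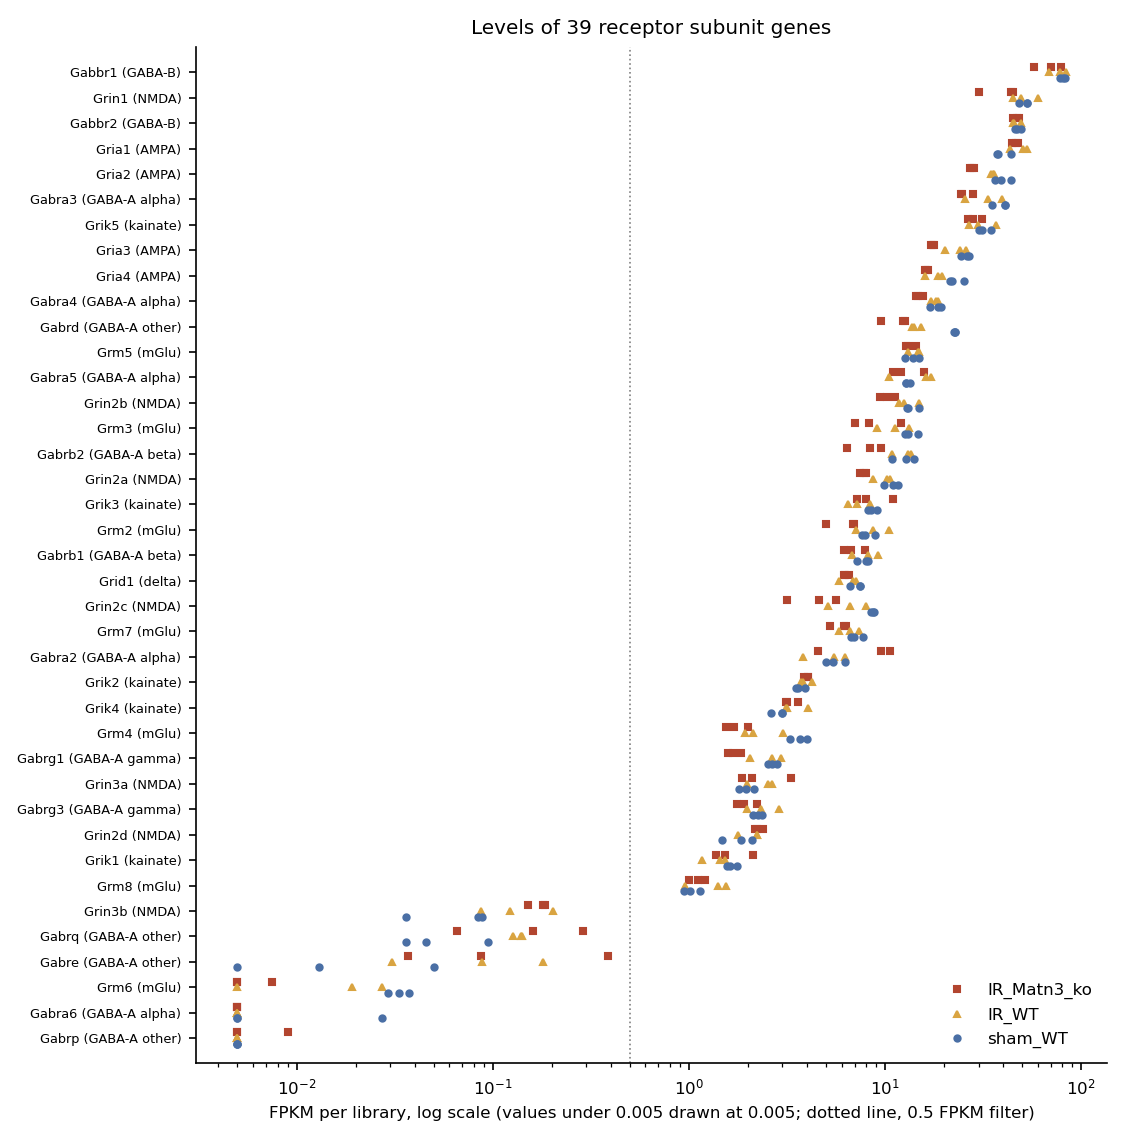
FPKM of 39 members in each library on a log axis, ordered by mean level, with IR_Matn3_ko as squares, IR_WT as triangles and sham_WT as circles. The dotted line marks the filter at 0.5 FPKM: 33 of them lie above it and 6 below, and Gabbr1 tops the order.

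Summed over all 44 members, the level was 590 ± 16 FPKM in IR_Matn3_ko, 682 ± 42 in IR_WT and 731 ± 24 in sham_WT. The 3 IR_Matn3_ko libraries (571 to 602 FPKM) lay below the 3 IR_WT libraries (636 to 718) and all sham_WT libraries (704 to 751). The GABA-A subunits summed to 199, 206 and 204 FPKM in IR_Matn3_ko, 233, 250 and 248 in IR_WT and 304, 260 and 274 in sham_WT, so the 3 groups did not overlap. For AMPA subunits the sums were 108, 108 and 107 FPKM in IR_Matn3_ko, 115, 129 and 133 in IR_WT and 134, 122 and 128 in sham_WT. There the knockout group lay apart from both others, which overlapped. NMDA subunits showed the same order, at 66.9 ± 7.6, 85.6 ± 7.0 and 88.3 ± 4.9 FPKM in IR_Matn3_ko, IR_WT and sham_WT. Kainate subunits did not: 46.3 ± 1.3 FPKM in IR_Matn3_ko, 47.2 ± 5.2 in IR_WT and 48.8 ± 2.8 in sham_WT, with all groups overlapping on this scale. These sums are descriptions, with no test. They use FPKM without the scaling between libraries of the main test. Its factors were 0.948 to 0.953 in sham_WT and 1.03 to 1.07 in IR_Matn3_ko. Dividing by them lowers the IR_Matn3_ko sums and raises those of sham_WT, so their kainate overlap holds for unscaled FPKM only. In bulk tissue, fewer cells of a type and less RNA per cell cannot be told apart.

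**Figure D2:**
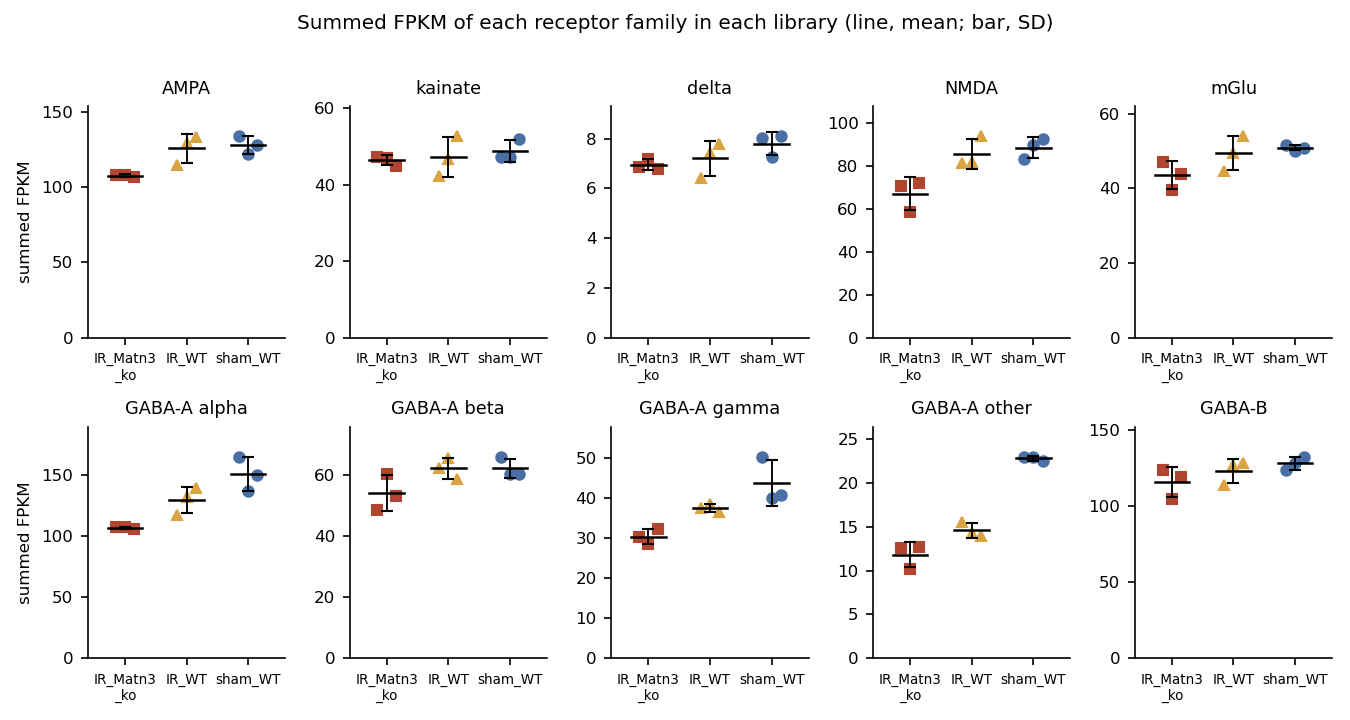
Summed FPKM of the 10 receptor families in each library, with IR_Matn3_ko on the left, then IR_WT and sham_WT, and the mean and SD of 3 libraries as a line and bar. The IR_Matn3_ko libraries lie lowest in the AMPA, NMDA, GABA-A alpha and GABA-A gamma panels, while the kainate groups overlap on this unscaled FPKM.

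After ischemia and reperfusion in wild-type cortex, 3 of the 38 tested members fell, among them Gabrd and Gria4, and none rose. Over all 17247 tested genes 4.06% passed the threshold (edgeR's quasi-likelihood test, Benjamini-Hochberg adjusted p under 0.05) and 1.52% passed it as lower. The all-gene calls split into 438 higher and 263 lower, or 591 and 155 with no scaling between libraries. The members' median log2 fold change was -0.14, beside 0.00 for all tested genes, and 30 of the 38 were below 0. At an unadjusted p under 0.05 there were 13 of 38 members, against 19.2% of all genes. The 3 IR_WT libraries lay below the 3 sham_WT libraries for 11 of 38 members, against 12.5% of all genes. DESeq2 called 6 members, against 9.65% of all genes, and edgeR with the library set term called 1, Gria4, against 2.36%.

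Gabrd encodes the delta subunit, found in GABA-A receptors outside synapses that carry tonic inhibition. It stood at 15.2, 14.1 and 13.7 FPKM in IR_WT and at 22.8, 22.8 and 22.5 FPKM in sham_WT. The sham_WT libraries were nearly identical and every IR_WT library lay far below them. The gene lies on chromosome 4, from 155384980 to 155398112 on the minus strand (GRCm38). The log2 fold change was -0.76 ± 0.11 (SE; adjusted p = 0.00707, edgeR), a level 40.7% lower in IR_WT, and the call held with each of the 9 libraries left out in turn. With the library set term Gabrd was at -0.66 (adjusted p = 0.0853).

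Gria4, a subunit of fast AMPA receptors that is prominent in interneurons, stood at 15.9, 19.4 and 18.6 FPKM in IR_WT and at 25.4, 21.9 and 21.5 FPKM in sham_WT. The IR_WT libraries were again all lower, with a fall of 0.44 ± 0.09 on the log2 scale (edgeR adjusted p = 0.0319). The call was close to the threshold: it was lost in 6 of the 9 fits that left out 1 library (adjusted p up to 0.124), namely any sham_WT library, IR_WT replicate 1 or 2, or IR_Matn3_ko replicate 3. With the library set term Gria4 kept its call (-0.60, adjusted p = 0.0380).

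Other members did not pass. Grm4, a presynaptic receptor that limits transmitter release, came nearest, at -0.73 ± 0.19 (edgeR adjusted p = 0.0619). It passed without IR_WT replicate 1 (edgeR adjusted p = 0.00597), but no IR_WT library then shares a library set with sham_WT. With the library set term, which rests on that replicate, Grm4 was at -0.36 and not called. Gria2 was at -0.26 ± 0.09 (edgeR adjusted p = 0.138) and Grin2a at -0.23 ± 0.09 (edgeR adjusted p = 0.196). Among members above 0, Gria1 was at 0.21 ± 0.10 (edgeR adjusted p = 0.270). No kainate, NMDA, metabotropic or GABA-B member was called, with 0 of 5, 0 of 6, 0 of 7 and 0 of 2 past the threshold. For so few members this is near the 4.06% of all genes. At an unadjusted p under 0.05 the same families had 1, 2, 2 and 0, against 19.2% of all genes.

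In the contrast between genotypes after ischemia, IR_Matn3_ko against IR_WT, no member passed edgeR's test, and no gene at all did: 0.0% of the 17247 tested genes were called. The direction was nevertheless uneven. Of the 38 members 33 were below 0, with a median log2 fold change of -0.24 beside 0.00 for all tested genes. At an unadjusted p under 0.05 there were 17 members, 16 of them lower and Gabra2 higher, against 13.3% of all genes. The 3 IR_Matn3_ko libraries lay below the 3 IR_WT libraries for 11 of 38 members, against 8.44% of all genes, and above them for 0. DESeq2 called 8 members, all lower (among them Gabra4, Gabrb2, Gabrg1, Gria2, Gria3, Grin2a and Grin2b), against 3.87% of all genes. On simulated data for this contrast DESeq2 recovered 71 of 100 genes changed 2-fold and made 53 false calls, where edgeR recovered 60 and made 10. The simulated counts used edgeR's own estimates of spread and held no library sets, so they cannot decide whether these 8 calls are false. Limma on log2(FPKM + 1) called 38 genes and 0 members, and edgeR with the library set term called 34 genes (0.197%) and 0 members.

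Among AMPA subunits, Gria3 had the smallest p. It stood at 17.7, 17.2 and 17.5 FPKM in IR_Matn3_ko and at 20.3, 24.1 and 25.8 FPKM in IR_WT. The knockout libraries were close together and all lower, with a log2 fold change of -0.46 ± 0.10 (edgeR adjusted p = 0.120). Gria2, whose edited product keeps calcium out of AMPA receptors, stood at 27.1, 27.9 and 28.4 FPKM in IR_Matn3_ko and at 34.8, 35.4 and 36.1 FPKM in IR_WT. Both groups were tight and did not overlap (-0.39 ± 0.09, edgeR adjusted p = 0.126). Gria1 lay at 46.5, 47.4 and 44.6 FPKM in IR_Matn3_ko and 43.5, 50.3 and 52.9 FPKM in IR_WT, with overlap (-0.12 ± 0.10, edgeR adjusted p = 0.659).

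Log2 fold changes of NMDA subunits were below 0 for 5 of 6 members, none of them called. Grin2a, which gives the receptor fast kinetics, stood at 7.45, 8.04 and 7.83 FPKM in IR_Matn3_ko and at 10.6, 10.3 and 8.68 FPKM in IR_WT. Grin2b, which gives slower kinetics, stood at 9.44, 11.2 and 10.2 FPKM in IR_Matn3_ko and at 12.5, 14.9 and 11.8 FPKM in IR_WT. For both genes every knockout library lay below every IR_WT library, and the log2 fold changes were alike, -0.37 ± 0.09 and -0.37 ± 0.10 (edgeR adjusted p = 0.132 and 0.158). Grin1 was at -0.42 ± 0.17 (edgeR adjusted p = 0.343), with the library labelled IR_Matn3_ko 2 lowest at 30.1 FPKM and the other 2 at 43.7 and 44.9 FPKM, against 44.8 to 60.4 FPKM in IR_WT. Grin2c was at -0.60 ± 0.21 (edgeR adjusted p = 0.273).

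For GABA-A subunits 11 of 12 tested members were below 0, again with none called. Gabrb2, a beta subunit of synaptic GABA-A receptors, stood at 6.36, 8.35 and 9.56 FPKM in IR_Matn3_ko and at 13.1, 13.6 and 10.9 FPKM in IR_WT. The groups did not overlap, though they spread widely, and the log2 fold change was -0.66 ± 0.15 (edgeR adjusted p = 0.126). Gabrg1 was at -0.62 ± 0.14, Gabra4 at -0.31 ± 0.08 and Gabrd at -0.36 ± 0.11, with edgeR adjusted p between 0.127 and 0.225 and no overlap between the groups. Gabra2, an alpha subunit of axon initial segments, was the exception. It stood at 10.6, 4.57 and 9.54 FPKM in IR_Matn3_ko and at 3.81, 6.25 and 5.49 FPKM in IR_WT, so 2 knockout libraries were high and the library labelled IR_Matn3_ko 2 lay within the IR_WT range (0.64 ± 0.28, edgeR adjusted p = 0.369).

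**Figure D3:**
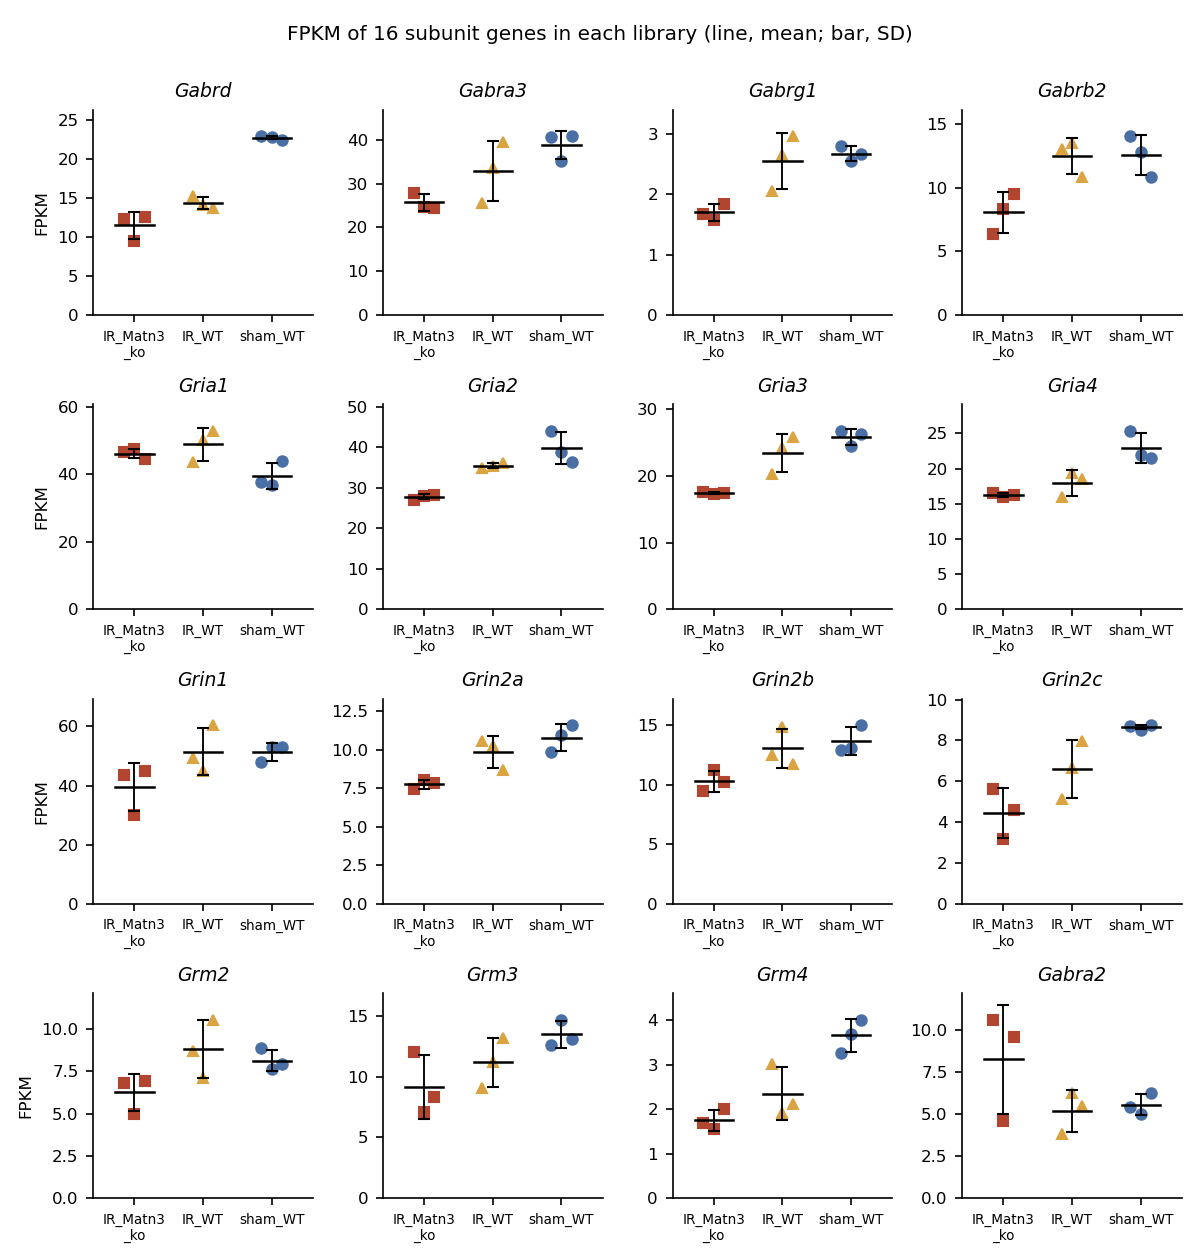
FPKM of 16 members in each library, with IR_Matn3_ko on the left, IR_WT in the middle and sham_WT on the right, and the mean and SD of 3 libraries as a line and bar. For Gabrd the 3 groups do not overlap and IR_Matn3_ko lies lowest, while Gria1 overlaps between IR_Matn3_ko and IR_WT.

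Metabotropic receptors were below 0 for 6 of 7 tested members and GABA-B subunits for 2 of 2, with none called. Grm2, a presynaptic autoreceptor, was at -0.53 ± 0.18 with no overlap (6.83, 4.99 and 6.95 FPKM in IR_Matn3_ko, against 8.72, 7.12 and 10.5 FPKM in IR_WT; edgeR adjusted p = 0.245). Grm5 was at -0.13 ± 0.09 and Gabbr1 at -0.18 ± 0.13 (edgeR adjusted p = 0.580 for each), with ranges of -0.17 to -0.07 and -0.30 to -0.06 when 1 library was left out. Kainate subunits had a median log2 fold change of -0.01, and 0 of 5 reached an unadjusted p under 0.05. Of all genes 13.3% did, so for so few members 0 is near that share.

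Where both genotype and surgery differed, in IR_Matn3_ko against sham_WT, 18 of 38 members were called: 17 fell and 1 rose. Of all tested genes 22.5% were called, 10.7% lower and 11.8% higher. Of the members 44.7% were called lower and 1 of 38 higher. The all-gene calls were 2037 higher and 1850 lower, or 3508 and 1158 with no scaling between libraries. Without scaling the all-gene median log2 fold change is 0.14, and that of the members -0.20, beside 0.00 and -0.34 with it. DESeq2 called 21 members, against 27.8% of all genes. The 3 IR_Matn3_ko libraries lay below the 3 sham_WT libraries for 24 of 38 members, against 20.8% of all genes, and above them for 1, against 21.6%. This contrast shares its libraries with both others, so their values for a gene are not independent of each other.

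GABA-A subunits had 7 of 12 tested members lower, beside 10.7% of all tested genes. Gabrd had the smallest p and fell by 1.11 ± 0.12 on the log2 scale, a level 53.7% lower in IR_Matn3_ko (edgeR adjusted p = 0.000280). The knockout libraries held 12.3, 9.48 and 12.6 FPKM, against the 22.5 to 22.8 FPKM of sham_WT. Gabrb2 fell by 0.77 ± 0.15 (edgeR adjusted p = 0.00641). Gabra3, an alpha subunit that is high early in development, fell by 0.72 ± 0.15, Gabra4 by 0.43 ± 0.08 and Gabrg1 by 0.78 ± 0.14 (edgeR adjusted p = 0.00845, 0.00585 and 0.00486). Gabra2, Gabra5, Gabrb1 and Gabrg3 were not called, nor was either GABA-B subunit (Gabbr1 at -0.35 ± 0.13, edgeR adjusted p = 0.0747).

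AMPA subunits fell for 3 of 4 members. Gria2 fell by 0.64 ± 0.09, Gria3 by 0.69 ± 0.10 and Gria4 by 0.63 ± 0.09 (edgeR adjusted p = 0.00113, 0.00127 and 0.00186). Gria2 had 27.1 to 28.4 FPKM in IR_Matn3_ko and 36.4 to 44.1 FPKM in sham_WT, and Gria3 17.2 to 17.7 FPKM against 24.5 to 26.8 FPKM. Gria1 was at 0.10 ± 0.10 (edgeR adjusted p = 0.520), with 44.6 to 47.4 FPKM in IR_Matn3_ko and 37.0 to 43.9 FPKM in sham_WT. On this per-length scale the Gria1 groups did not overlap, whereas with TMM-scaled counts they did. Limma on quantile-normalized values put Gria1 at 0.30 and called it higher. Limma on log2(FPKM + 1) and edgeR with no scaling between libraries did not call it, so the call depends on the fit. With the library set term Gria1 was at -0.13 (adjusted p = 0.692).

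NMDA subunits fell for 3 of 6 members: Grin2a by 0.60 ± 0.09, Grin2b by 0.54 ± 0.10 and Grin2c by 1.08 ± 0.21 (edgeR adjusted p = 0.00171, 0.00462 and 0.00694). Grin2c, which in mouse forebrain is known from astrocytes, stood at 5.61, 3.16 and 4.59 FPKM in IR_Matn3_ko, 5.12, 6.66 and 7.96 FPKM in IR_WT and 8.72, 8.53 and 8.73 FPKM in sham_WT. The sham_WT libraries were tight and above all others, and IR_WT and IR_Matn3_ko overlapped. Grin1 was at -0.50 ± 0.17 (edgeR adjusted p = 0.0627).

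Of the 7 tested metabotropic receptors 3 fell. Grm4 stood at 1.70, 1.55 and 2.00 FPKM in IR_Matn3_ko, against 3.27, 3.70 and 4.01 FPKM in sham_WT. The groups were far apart, and the fall of 1.19 ± 0.19 (edgeR adjusted p = 0.00236) exceeded that of any other member in this fit. With the library set term Grm4 was at -0.59 and not called (adjusted p = 0.201), and Grin2c (-1.58), Gabra3 (-1.22) and Gabrg1 (-1.22) were lower. Grm7, another presynaptic receptor, fell by 0.40 ± 0.11, and Grm3, found on astrocytes and neurons, by 0.68 ± 0.20 (edgeR adjusted p = 0.0277 and 0.0374). Kainate subunits had 0 of 5 called and 0 of 5 at an unadjusted p under 0.05, against 22.5% and 36.1% of all genes. Grid1, a delta subunit that organizes synapses more than it acts as a channel, fell by 0.31 ± 0.09 (edgeR adjusted p = 0.0395).

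**Figure D4:**
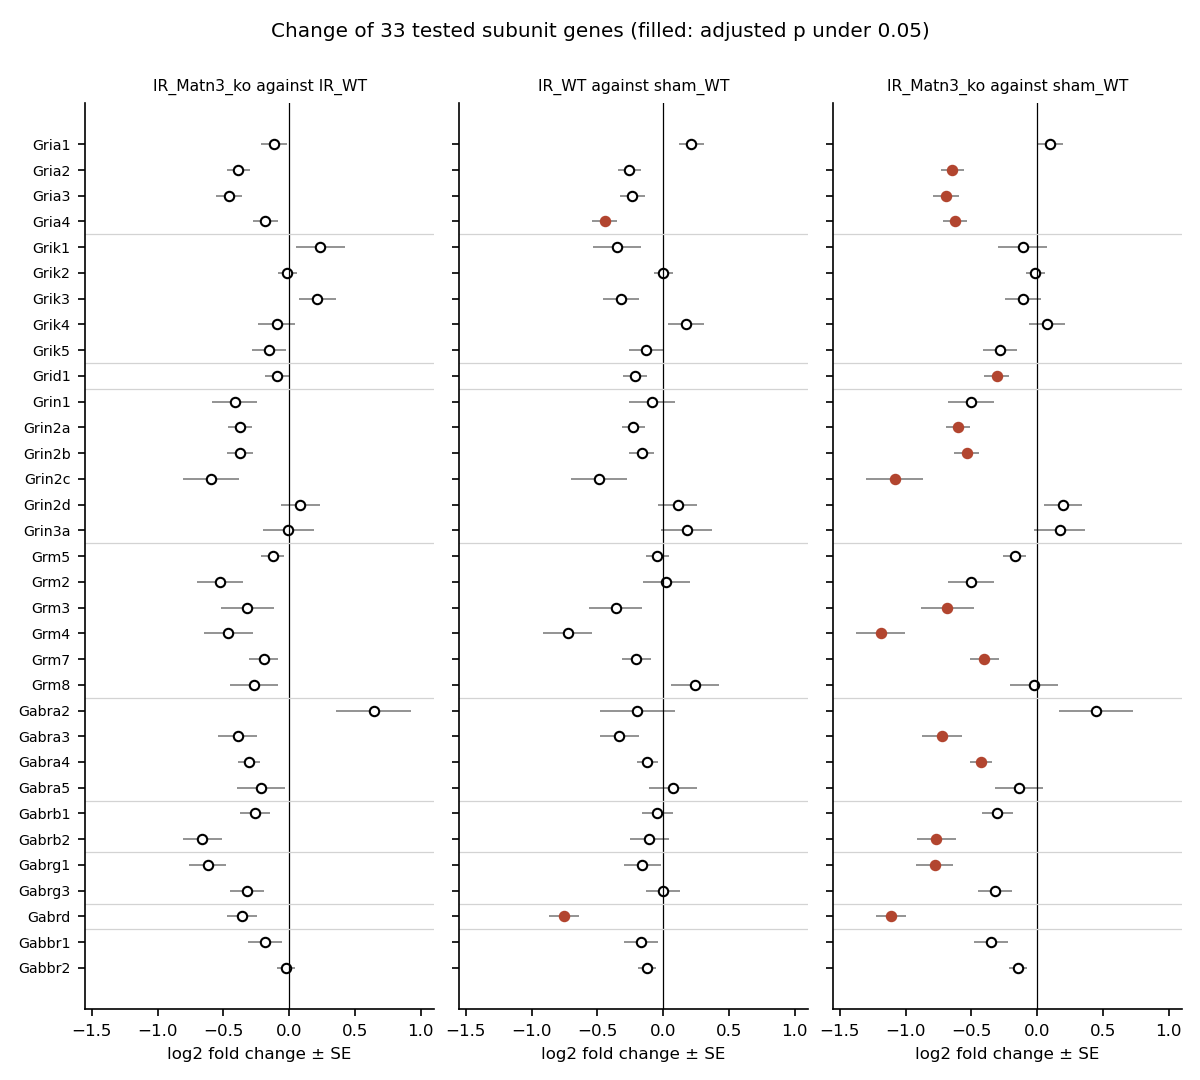
Log2 fold change with its SE for 33 tested members in the 3 contrasts, grouped by family from AMPA at the top to GABA-B at the bottom, with members past an adjusted p of 0.05 filled. The panel of IR_Matn3_ko against IR_WT has no filled point, that of IR_WT against sham_WT has 2, and that of IR_Matn3_ko against sham_WT has 15, each of them below 0.

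Leaving out 1 library at a time kept the calls of 14 of the 18 members in all 9 fits. Grm7 lost its call in 3 fits and Grm3 and Grid1 in 6 each, among them the fit without the library labelled IR_Matn3_ko 2. In that fit 17 members were called, 15 lower and 2 higher, among the higher Gabra2. A fit with the term for library set links IR_Matn3_ko and sham_WT only through IR_WT, of which replicate 1 alone is in the set of sham_WT. With the library set term 8 of the 18 kept their calls (among them Gabra3, Gabrd, Gabrg1, Gria2, Gria3, Gria4 and Grin2c; all 8 were lower), against 6.21% of all genes, and the members' median was -0.59.

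Markers of several cell types also differed between the groups. Beside the counts below, 10.7% of all tested genes were lower and 11.8% higher in IR_Matn3_ko against sham_WT. In IR_WT against sham_WT these shares were 1.52% and 2.54%. The 15 pan-neuronal markers summed to 6979 to 9087 CPM in IR_Matn3_ko, 8676 to 10041 in IR_WT and 9902 to 10230 in sham_WT. The lowest value was that of the library labelled IR_Matn3_ko 2. In IR_Matn3_ko against sham_WT, 7 of the 15 fell and 0 rose (median log2 fold change -0.32), and without that library 5 fell (median -0.18). Against IR_WT their median was -0.22, with 0 called, and -0.09 without that library. The 10 astrocyte markers summed to 1982 to 2973 CPM in IR_Matn3_ko, 3403 to 4345 in IR_WT and 4287 to 4882 in sham_WT, with 5 of 10 lower in IR_Matn3_ko against sham_WT (median -0.60, and -0.37 with 4 lower without the library labelled IR_Matn3_ko 2). Against IR_WT the astrocyte median was -0.52, and -0.30 without that library, with 0 called. Of 12 excitatory neuron markers 3 fell in IR_Matn3_ko against sham_WT. Of 12 interneuron markers 1 fell, which is near the share of all genes. The 10 oligodendrocyte markers summed to 2323 to 2584 CPM in IR_Matn3_ko, 2405 to 3029 in IR_WT and 3492 to 5418 in sham_WT, and 5 of them fell in IR_Matn3_ko and 6 in IR_WT, each against sham_WT. The 10 microglia and macrophage markers summed to 373 to 417 CPM in IR_Matn3_ko, 320 to 343 in IR_WT and 236 to 263 in sham_WT, with 5 higher and 1 lower in IR_Matn3_ko and 4 higher and 1 lower in IR_WT, each against sham_WT. Mitochondrially encoded genes took 6.41% to 7.26% of counts in IR_Matn3_ko, 6.08% to 9.37% in IR_WT and 7.88% to 9.42% in sham_WT. The part of these differences in the members' values was not tested.

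Makeup within a family does not depend on scaling between libraries, and shares were compared with two-sided exact permutation tests (6 tests over 3 shares, smallest possible p = 0.1, so that none could pass 0.05). Gria2 made up 25.2%, 25.7% and 26.6% of AMPA subunit FPKM in IR_Matn3_ko, 30.4%, 27.4% and 27.1% in IR_WT and 32.9%, 31.8% and 28.5% in sham_WT. Each knockout library lay below each IR_WT library, with a difference of -2.46 percentage points between the means (exact permutation p = 0.1, adjusted over the 6 tests 0.6), while IR_WT and sham_WT overlapped (difference -2.76 points, exact permutation p = 0.2). Grin2a made up 43.1 ± 1.2%, 43.1 ± 2.6% and 44.1 ± 1.3% of Grin2a plus Grin2b FPKM in IR_Matn3_ko, IR_WT and sham_WT (exact permutation p = 1 and 0.5).

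**Figure D5:**
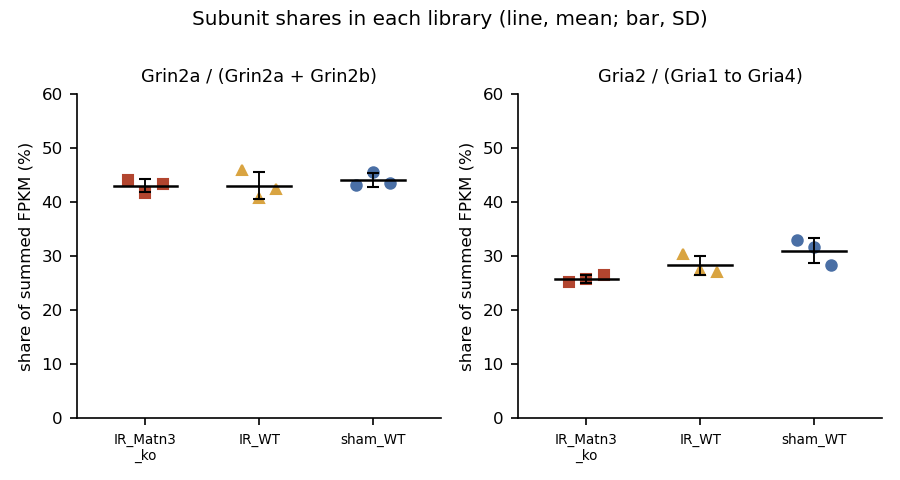
Share of Grin2a in Grin2a plus Grin2b and of Gria2 in the AMPA subunits, in percent of summed FPKM per library, with IR_Matn3_ko on the left, then IR_WT and sham_WT, and mean and SD as a line and bar. The Gria2 share is at 25.2% to 26.6% in IR_Matn3_ko and at 27.1% to 32.9% in the others.

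Genes that act with the receptors were counted from 6 lists. Beside these counts, 10.7% of all tested genes were lower and 11.8% higher in IR_Matn3_ko against sham_WT, and 1.52% lower and 2.54% higher in IR_WT against sham_WT. Many of the calls depend on the library set. Receptor members and list genes with reported fold changes numbered 39 in IR_Matn3_ko against sham_WT, and 22 of them lost their call with the library set term. In IR_WT against sham_WT 4 of 19 lost it. Auxiliary subunits of glutamate receptors had 6 of 16 lower (8 without the library labelled IR_Matn3_ko 2) and 1 higher in IR_Matn3_ko against sham_WT. In IR_WT against sham_WT 2 were lower and 1 higher. Cacng5, a transmembrane AMPA receptor regulatory protein, rose in both (1.82 ± 0.16 and 1.01 ± 0.16, edgeR adjusted p = 0.000111 and 0.00809), and Syndig1, which promotes excitatory synapse formation, fell in both (-0.92 ± 0.09 and -0.56 ± 0.09, edgeR adjusted p = 0.000260 and 0.0115). Cacng7 fell in IR_WT against sham_WT (-0.33 ± 0.07, edgeR adjusted p = 0.0342). Neto2, an auxiliary protein of kainate receptors, and Gsg1l fell in IR_Matn3_ko against sham_WT (-0.59 ± 0.14 and -0.51 ± 0.09, edgeR adjusted p = 0.0180 and 0.00319).

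Of 15 scaffold and trafficking genes 7 fell in IR_Matn3_ko against sham_WT, among them Homer1 (-0.84 ± 0.18), Shank1 (-0.77 ± 0.13), Shank3 (-0.63 ± 0.10) and Dlg4, which encodes PSD-95 (-0.48 ± 0.10). In IR_WT against sham_WT Shank3 alone fell (-0.46 ± 0.09, edgeR adjusted p = 0.0291). Of 12 genes for glutamate transport and metabolism 0 fell in IR_WT against sham_WT. In IR_Matn3_ko against sham_WT 7 of them fell (5 without the library labelled IR_Matn3_ko 2). They include Slc1a2, the main glutamate transporter of astrocytes (-1.17 ± 0.15, edgeR adjusted p = 0.000723), Glul, glutamine synthetase (-0.89 ± 0.18, edgeR adjusted p = 0.00858), Slc38a3 (-0.94 ± 0.24) and Slc17a6, a vesicular glutamate transporter (-0.90 ± 0.25).

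On the GABA side 3 of 8 genes for synthesis, transport and breakdown fell in IR_Matn3_ko against sham_WT. Among them were the GABA transporter Slc6a11 (-0.76 ± 0.18) and Aldh5a1, an enzyme of a later step of GABA breakdown (-0.42 ± 0.10). Both chloride transporters that set the direction of GABA-A currents fell, Slc12a2 by 0.49 ± 0.10 and Slc12a5 by 0.45 ± 0.10 (edgeR adjusted p = 0.00629 and 0.0120). Of 15 anchoring and auxiliary genes 2 rose, Kctd12, a GABA-B auxiliary subunit (0.65 ± 0.11), and Gabarap (0.50 ± 0.08), and 2 fell, among them Iqsec3 (-0.37 ± 0.11), which is near the share of all genes in each direction. Kctd12 also rose in IR_WT against sham_WT (0.55 ± 0.11, edgeR adjusted p = 0.0267). In IR_Matn3_ko against IR_WT none of the 6 lists had a called gene with edgeR, and their medians lay between -0.31 and -0.04, beside 0.00 for all tested genes.

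Across the 9 libraries, log2 CPM values of the 38 tested members gave 703 pairs with a median Pearson r of 0.41. Among the most alike were Gabrg1 with Gria3 (r = 0.98) and Grm3 with Gabbr1 and Grin2c with Gabbr1 (0.97 each). The libraries share group, library set and depth, so these are descriptions only.

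Promoters are shown for members called lower in IR_Matn3_ko against sham_WT, a direction that the choice itself fixes. RefSeq entries (GRCm38.p6) with the 250 bases before the gene start matched 29 of the 44 members. Of the 9 matched members called lower, 5 have the same start there as in the deposited table. The 3 of these 5 with the largest fall are printed, 5′ to 3′ on the gene's strand, with the GC box letters GGGCGG and CCGCCC in capitals.
Grin2c, chr11:115267244-115267493, minus strand: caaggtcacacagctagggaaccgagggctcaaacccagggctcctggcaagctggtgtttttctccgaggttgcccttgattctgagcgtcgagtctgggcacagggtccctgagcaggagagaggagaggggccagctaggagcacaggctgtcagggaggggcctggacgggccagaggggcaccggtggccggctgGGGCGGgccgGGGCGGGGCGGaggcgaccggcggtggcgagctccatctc
Gabrg1, chr5:70842618-70842867, minus strand: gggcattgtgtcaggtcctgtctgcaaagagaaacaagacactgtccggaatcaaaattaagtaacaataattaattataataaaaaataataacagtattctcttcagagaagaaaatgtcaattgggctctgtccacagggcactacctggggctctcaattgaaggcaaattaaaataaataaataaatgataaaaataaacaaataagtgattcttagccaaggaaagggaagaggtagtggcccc
Gria2, chr3:80802836-80803085, minus strand: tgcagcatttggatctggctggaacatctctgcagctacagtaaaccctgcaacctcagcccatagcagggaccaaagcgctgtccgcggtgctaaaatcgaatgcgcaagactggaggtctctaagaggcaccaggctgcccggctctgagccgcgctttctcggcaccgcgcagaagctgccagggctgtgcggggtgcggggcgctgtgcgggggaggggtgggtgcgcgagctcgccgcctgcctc

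These 3 windows are unlike each other. Grin2c is 68.8% G and C and holds 3 GC box matches, the second and the third of which overlap. Gabrg1 is 35.6% G and C, and Gria2 is 64.8%, and neither holds a match. Among matched members the GC box letters occurred in 15 of 29 windows, against 32.7% of 32851 RefSeq windows, in 5 of the 9 called lower and in 8 of the 14 tested and not called. The CRE letters TGACGTCA, which read the same on both strands, occurred in 0 of 29, against 1.55% of all windows. The TATA letters TATAAA, or TTTATA on the other strand, occurred in 3 of 29, against 12.4%. The letters TTCAGCACC, part of the site bound by the neuronal repressor REST, or GGTGCTGAA, occurred in 1 of 29, that of Grm2, against 0.301%. None of these motifs overlaps another in its letters.

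Some values carry a limit from the genome. Gabra4 and Gabrb1 overlap on opposite strands, Gabra5 overlaps another gene on the opposite strand, and Grin3a holds Ppp3r2 on the same strand. Grin3b, with 8 to 50 counts, overlaps Tmem259 on the opposite strand. Other members overlap genes that are not protein-coding, some of them on the same strand, such as Grik2 (6 genes) and Grm5 (5 genes). The libraries mark the strand, but no source used here states that the counting used it, so the values of members with overlaps are less certain. Counting by strand would not separate overlaps on the same strand.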

How the data were processed

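Poly(A) RNA of 9 mice was sequenced as paired-end, strand-marked libraries with molecular identifiers, per the labels' protocols. Per the submitters' processing notes, the tools included StringTie 1.3.4d, HISAT2 2.0.4, edgeR, DESeq2, UMI-tools and cutadapt 1.9. Those notes name the human build GRCh38, but 37764 of the 37893 gene IDs occur in GENCODE M21, a mouse annotation on GRCm38, 88.7% of the IDs with identical coordinates. The authors deposited a count, an FPKM and a TPM for each gene and library. No source used here states whether identifiers were collapsed before counting. Depth was 53400376 to 68370527 counts per library, and no 2 replicates agreed within sampling noise (chi-square divided by its degrees of freedom, 21.9 to 73.3).

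The main test was edgeR 4.0.16 (quasi-likelihood, TMM scaling, 9 libraries, group means, R 4.3.3) on genes with at least 0.5 FPKM in 3 libraries, with Benjamini-Hochberg adjustment over 17247 genes. SE was the log2 fold change divided by the square root of F. On simulated counts for the 3 contrasts edgeR recovered 55 to 60 of 100 genes changed 2-fold and 87 or 88 of 100 changed 4-fold, with 9 or 10 false calls. These counts were drawn with edgeR's own estimates of spread, without library sets and without changes under 2-fold. Alternatives used DESeq2 1.42.0, limma 3.58.1 on log2(FPKM + 1), log2(FPKM + 0.1) or log2(TPM + 1), other scalings and filters, a library set term, a replicate block and leaving out each library. The contrast IR_Matn3_ko against sham_WT was chosen after seeing the data. Members and lists were chosen with earlier results of these data known. Members named with fold changes are those called, filled up to 12 per contrast by smallest p, and the highest member of each family; others named beside them (Gabra2, for example) were chosen after their values were seen. Of each pathway list, at most 4 called genes are named, by size of change. Results of some members and list genes are not reported here, though counts, sums and medians include them.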

Additional observations from a re-analysis of the deposited data

How the results depend on the processing

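For IR_WT against sham_WT, called members numbered 1 with no scaling, with limma on log2(FPKM + 1), log2(FPKM + 0.1) or log2(TPM + 1), with no filter, with the 6 libraries alone, with the replicate block and with the library set term, and 6 with DESeq2. They ran from 1 to 3 with 1 library left out. All called genes numbered 1664 with DESeq2, 418 with no filter, 410 with the replicate block and 407 with the set term, and 242 to 996 with 1 library left out. The members' median was -0.27 with the set term.

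For IR_Matn3_ko against IR_WT, 8 members were called by DESeq2 and 0 in every fit that left out 1 library. All called genes numbered 668 with DESeq2, 38 and 15 with limma on log2(FPKM + 1) and log2(FPKM + 0.1), 25 with TPM and 34 with the set term, and 0 to 61 with 1 library left out, 61 being without the library labelled IR_Matn3_ko 2. The median was -0.17 with no scaling, -0.15 and -0.18 with the FPKM fits, -0.13 with TPM, -0.20 with no filter and -0.28 with the set term, and -0.27 to -0.15 with 1 library left out. For IR_Matn3_ko against sham_WT, 8 members and 1071 genes were called with the set term, and 14 to 20 members and 2139 to 4182 genes with 1 library left out. The median was -0.20 with no scaling, -0.20 and -0.21 with the FPKM fits, -0.16 with TPM and -0.59 with the set term, and -0.39 to -0.33 with 1 library left out.

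Directions turned for values near 0. In IR_WT against sham_WT Grm5 was at 0.0296 with no scaling, 0.0465, 0.0495 and 0.0657 with limma on both FPKM scales and TPM, 0.0125 without sham_WT replicate 1 and 0.0077 without IR_WT replicate 1 (-0.1052 to 0.0125 with 1 library left out). Grin1 was at 0.0104 with TPM and at 0.0268 without IR_WT replicate 2 (-0.2385 to 0.0268). In IR_Matn3_ko against IR_WT Gria1 was at 0.0002 with quantile normalization and Grik5 at 0.0058 without IR_WT replicate 3 (-0.2451 to 0.0058). In IR_Matn3_ko against sham_WT Grm5 was at 0.0118 with TPM and Gria1 at -0.13 with the set term. The Grin2a share difference was 0.0519 points without IR_WT replicate 2 and 1.75 within the library set for IR_WT against sham_WT. For IR_Matn3_ko against IR_WT it was 0.639 without the library labelled IR_Matn3_ko 2, 1.39 without IR_WT replicate 1 and 1.39 within the set. With 1 library left out, the share differences for IR_WT against sham_WT and IR_Matn3_ko against IR_WT ran from -2.45 to 0.0519 and -1.12 to 1.39 for Grin2a, and -4.05 to -1.82 and -3.07 to -1.41 for Gria2. The causes were not tested.

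Same-numbered libraries did not deviate together (correlations -0.151 to 0.116), and the main fit used no pairing. With 3 libraries a group these correlations cannot exclude a pairing. The replicate block gave 1, 0 and 17 called members in IR_WT against sham_WT, IR_Matn3_ko against IR_WT and IR_Matn3_ko against sham_WT. Group, library set and sampled region overlap in this design, and 3 mice a group leave 2-fold changes partly undetected. Depth limits only the 6 untested members.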

Other observations

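The mean makeup of some families differed between groups beyond the shares compared above. These were chosen after their values were seen and have no test. Gria1 made up 42.9 ± 0.97% of AMPA subunit FPKM in IR_Matn3_ko, 38.8 ± 0.82% in IR_WT and 30.9 ± 3.1% in sham_WT (SD, n = 3 each, as below). Grin2d, a GluN2 subunit of interneurons, made up 9.12 ± 0.37% of GluN2 FPKM in IR_Matn3_ko, 6.60% in IR_WT and 5.17% in sham_WT. Gabrb2 made up 15.0 ± 2.7% of beta subunit FPKM in IR_Matn3_ko, 20.1% in IR_WT and 20.2% in sham_WT. The Gabra2 share of alpha subunits was 7.73 ± 3.0% in IR_Matn3_ko, 3.98 ± 0.76% in IR_WT and 3.70 ± 0.43% in sham_WT. This knockout mean rests on 2 libraries, with Gabra2 at 10.6 and 9.54 FPKM. In the library labelled IR_Matn3_ko 2 it was at 4.57 FPKM, within the 3.81 to 6.25 FPKM of IR_WT.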
